A study of Mus musculus with 48 samples.

Results

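White adipose tissue (WAT) of old mice that began dietary restriction late in life was compared with WAT of mice restricted since early adulthood. The comparison used 8 of the 48 libraries of the series, which are 8 of its 22 WAT libraries: 5 of late-restricted mice (ALDR) and 3 of lifelong-restricted mice (DR), all labelled 26 months. The groups were set by the diet and age in the labels. The study's design switches diets in old age to see if an earlier diet leaves a lasting mark, and this comparison holds the diet at death fixed while the earlier diet differs.

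All mice were females of C3B6F1, a hybrid of C3H and C57BL/6 parents, with no transgene or mutation named in the labels. DR mice received 60% of the food eaten by the fully fed (AL) mice from 12 weeks of age until death. ALDR mice ate freely until 24 months and were then moved to the same restriction, which was brought in by steps of 10% per week. Restricted mice of both groups got 1 meal a day, and every mouse was killed in the 3 hours before that meal was due. Comparison groups in WAT were 3 AL libraries and 5 libraries of mice returned from restriction to full feeding at 24 months (DRAL), both at 26 months. At 5 months there were 3 AL libraries and 3 libraries of mice restricted for 2 months. The labels call the libraries biological replicates but do not tie them to named animals, so p-values measure the spread between these libraries. The protocol in the labels gives 27 months at death for the old mice, where the labels themselves give 26, and it names an epididymal depot although the mice were female, so the exact depot is uncertain.

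White adipocytes store energy as triglyceride and can make the fatty acids for it from glucose. Glycolysis and pyruvate dehydrogenase deliver citrate, ATP citrate lyase splits it into acetyl-CoA, and acetyl-CoA carboxylase and fatty acid synthase build palmitate with NADPH from malic enzyme and the pentose phosphate pathway. SREBP1c and ChREBP are transcription factors of this programme, and insulin after a meal is known to raise it. Restricted rodents that eat 1 daily meal are known for strong fatty acid synthesis in fat after feeding and fat burning later in the day. Adipose tissue also holds macrophages, whose number and lipid-handling genes are known to rise with obesity and age.

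Library totals in ALDR and DR lay between 12247161 and 22258644 counts, so that 3 counts equal 0.153 to 0.227 CPM (counts scaled to the normalised library size), which covers counting error only. No 2 of these libraries agreed within sampling noise. White adipocyte markers were high in every library, at a summed 21720 to 28850 CPM in ALDR and 24170 to 29480 CPM in DR, and none of the 10 was without counts. Skeletal muscle RNA was uneven. Ckm, the muscle creatine kinase, stood at 4.61, 363, 0.113, 0.657 and 140.1 CPM in ALDR replicates 1 to 5 and at 45.8, 531 and 1943 CPM in DR replicates 1 to 3. The 3 libraries under 5 CPM were all ALDR, while ALDR replicates 2 and 5 lay within the DR range. The difference in log2(CPM + 1) was -4.71 and did not pass an exact two-sided permutation test (p = 0.1071, smallest possible p 0.01786). Summed over 28 muscle markers, ALDR had 107.5 to 12330 CPM with a median of 155.8, and DR had 1265, 19940 and 40780 CPM. Of these markers, Myh7, Tcap and Xirp2 had no count in ALDR replicate 3, and Myh2 and Myh7 none in ALDR replicate 4. Liver markers summed to 5011 CPM in ALDR replicate 2 against 1866 to 2850 CPM in the other ALDR and 2346 to 3548 CPM in DR. Their mean log2(CPM + 1) was 6.96 in ALDR replicate 2, 2.267 to 3.089 in the other ALDR and 2.255 to 3.835 in DR. The part of this library's liver RNA in the results was not tested.

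**Figure D1:**
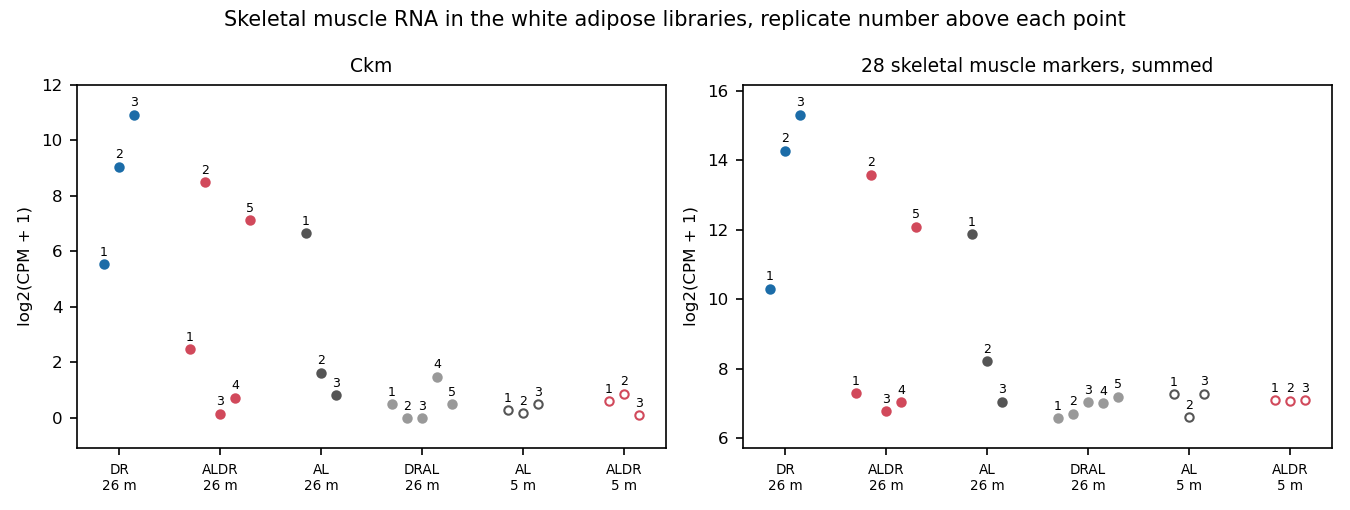
Skeletal muscle RNA in each WAT library, as log2(CPM + 1) of Ckm (left) and of the sum of 28 muscle markers (right), with the replicate number above each point and the 6 groups on the x axis. Ckm was at 45.8 to 1943 CPM in DR and at 0.113 to 363 CPM in ALDR, where replicates 2 and 5 overlap the DR libraries.

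Across 15828 genes tested, 919 were higher in ALDR (5.81% of those tested) and 1102 were lower (6.96%), 2021 in all (12.8%), at an edgeR quasi-likelihood adjusted p under 0.05. Of these, 311 higher and 313 lower genes differed by 1 or more on the log2 scale. In 1672 of the 2021 the 5 ALDR and 3 DR libraries did not overlap, which was so in 18.3% of all genes tested. With the muscle marker score as a covariate, 203 genes were higher (1.28%) and 386 lower (2.44%), and 577 of the 2021 kept their call. All 2021 had the same sign in that fit. Without DR replicate 2 the count was 1069 and without DR replicate 3, the library with the most muscle RNA, it was 878. ALDR replicates 2 and 5 against DR replicates 1 and 2, where the muscle markers had a median of -0.20 and none was called, gave 219 calls. This subset holds ALDR replicate 2 with its liver RNA, and its liver markers had a median of 4.09, with none called. In the 4 libraries with Ckm under 100 CPM (ALDR 1, 3 and 4 against DR 1) 66 genes were called, but muscle markers still differed there (median -3.75, 14 of 28 lower) and the DR arm was a single library, assumed to vary like the other groups.

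Fatty acid synthesis genes were lower in ALDR than in DR. Of 20 listed genes, 13 were lower and 1 was higher in ALDR (background 6.96% lower, 5.81% higher), with a median log2 fold change of -1.55 against 0.01 over all genes. The same counts, 13 lower and 1 higher, were found with the muscle score in the fit (background 2.44% and 1.28%). In ALDR 2 and 5 against DR 1 and 2, 10 were lower (median -1.70), where 152 genes were lower in all. In the 4 libraries with Ckm under 100 CPM, with 1 DR library, the median was -1.34. Without DR replicate 3 none was called higher. Lower members ran from the citrate carrier to the elongase: Slc25a1, Acly, Acaca, Acacb, Fasn, Elovl6, Fads1, Me1, Acss2, Aacs, Thrsp, Pnpla3 and Srebf1.

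Promoters of 3 of these genes are shown because their transcripts moved together and each holds a CCAAT box, the site of the factor NF-Y that works beside SREBP at lipogenic genes. The sequences are RefSeq windows of build GRCm38.p6, from 250 bases before to 50 after the annotated start, written 5′ to 3′ on the gene's minus strand, with capitals marking CCAAT or CACGTG on either strand.
Slc25a1, chr16:17928170-17928469: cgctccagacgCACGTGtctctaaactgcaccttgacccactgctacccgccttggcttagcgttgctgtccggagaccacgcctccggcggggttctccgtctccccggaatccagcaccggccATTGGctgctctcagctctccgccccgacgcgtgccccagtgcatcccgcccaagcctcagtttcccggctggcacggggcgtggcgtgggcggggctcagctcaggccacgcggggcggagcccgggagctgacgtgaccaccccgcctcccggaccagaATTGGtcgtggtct
Fasn, chr11:120824498-120824797: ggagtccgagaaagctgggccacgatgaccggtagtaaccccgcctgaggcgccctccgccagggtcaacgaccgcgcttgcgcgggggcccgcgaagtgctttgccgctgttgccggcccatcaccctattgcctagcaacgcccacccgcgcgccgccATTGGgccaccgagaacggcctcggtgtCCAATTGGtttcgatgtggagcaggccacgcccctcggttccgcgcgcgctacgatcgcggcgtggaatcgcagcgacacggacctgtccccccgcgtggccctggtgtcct
Acly, chr11:100527951-100528250: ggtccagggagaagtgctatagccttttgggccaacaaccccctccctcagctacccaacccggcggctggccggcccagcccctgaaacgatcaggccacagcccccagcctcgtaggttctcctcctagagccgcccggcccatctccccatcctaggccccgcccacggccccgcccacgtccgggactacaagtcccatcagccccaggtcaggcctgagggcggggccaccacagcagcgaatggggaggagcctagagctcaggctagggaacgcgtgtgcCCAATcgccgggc
In Fasn, CCAAT and its reverse complement overlap in a single run of capitals. The table held 21 windows for 17 of the 20 listed genes, and Scd1, Scd2 and Fads1 were without an entry. CCAAT was present in 12 of the 21 windows (11 genes), against 37.4% of all 32817 windows. The E-box CACGTG was in 3 (Elovl5, Mlxipl and Slc25a1), against 7.15%, and the sterol regulatory element TCACNCCAC was in 1, the Mlxipl window, against 1.24%. A match describes these letters only and is not evidence of binding.

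Slc25a1, which exports citrate from mitochondria, had the smallest p of the list. The annotation places Slc25a1 (ENSMUSG00000003528) on chromosome 16, 17925223 to 17928219, minus strand (GRCm38). It stood at 278, 195, 174, 214 and 152 CPM in ALDR and at 1117, 748 and 971 CPM in DR. Every DR library was above every ALDR library, and the log2 fold change was -2.22 ± 0.24 (SE, edgeR adjusted p = 2.45e-05). Acly, which cleaves that citrate, had 1050, 484, 509, 583 and 330.0 CPM in ALDR and 3858, 2189 and 4522 CPM in DR (-2.58 ± 0.41, adjusted p = 0.000686). Acaca, acetyl-CoA carboxylase, which commits acetyl-CoA to fat, stood at 3394, 2315, 1953, 1149 and 1684 CPM in ALDR and 9688, 8606 and 10120 CPM in DR. Its log2 fold change was -2.17 ± 0.34 (adjusted p = 0.000651), with no overlap between the groups.

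Fatty acid synthase is encoded by Fasn (ENSMUSG00000025153) on chromosome 11, 120805846 to 120824547, minus strand. It reached 28540, 35570 and 32830 CPM in DR and 10150, 6256, 6689, 4184 and 5412 CPM in ALDR, a log2 fold change of -2.31 ± 0.38 (edgeR adjusted p = 0.000748). DR replicate 1, which had the least muscle RNA of its group, was the lowest of DR and above every ALDR library. Elovl6, which lengthens palmitate, showed the largest log2 fold change of the list: 553, 194, 218, 178 and 148 CPM in ALDR against 2983, 1933 and 2547 CPM in DR (-3.27 ± 0.49, adjusted p = 0.000467). For these genes ALDR replicate 1 was the highest of its group and still under the lowest DR library.

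Me1, malic enzyme, a source of NADPH, stood at 566, 333, 354, 342 and 237 CPM in ALDR and 1953, 1516 and 2081 CPM in DR (-2.34 ± 0.30, adjusted p = 0.000137). Among regulators, Srebf1, which encodes SREBP1, had 223, 164, 151, 201 and 164 CPM in ALDR and 426, 469 and 556 CPM in DR (-1.42 ± 0.19, adjusted p = 0.000166), again without overlap. Mlxipl, which encodes ChREBP, overlapped between the groups and was not called (-0.47 ± 0.22, adjusted p = 0.155). Scd1, the stearoyl-CoA desaturase, missed the threshold although all ALDR libraries (32360, 34410, 34380, 41790 and 24700 CPM) were under the DR libraries (74140, 65410 and 57050 CPM), with a log2 fold change of -0.97 ± 0.32 (adjusted p = 0.0527). Nnat, an imprinted gene of adipocytes, was the only member called higher (1.13 ± 0.27, adjusted p = 0.0112), with 647 ± 112 CPM in ALDR and 295 ± 75.2 CPM in DR (mean ± SD, n = 5 and 3).

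**Figure D2:**
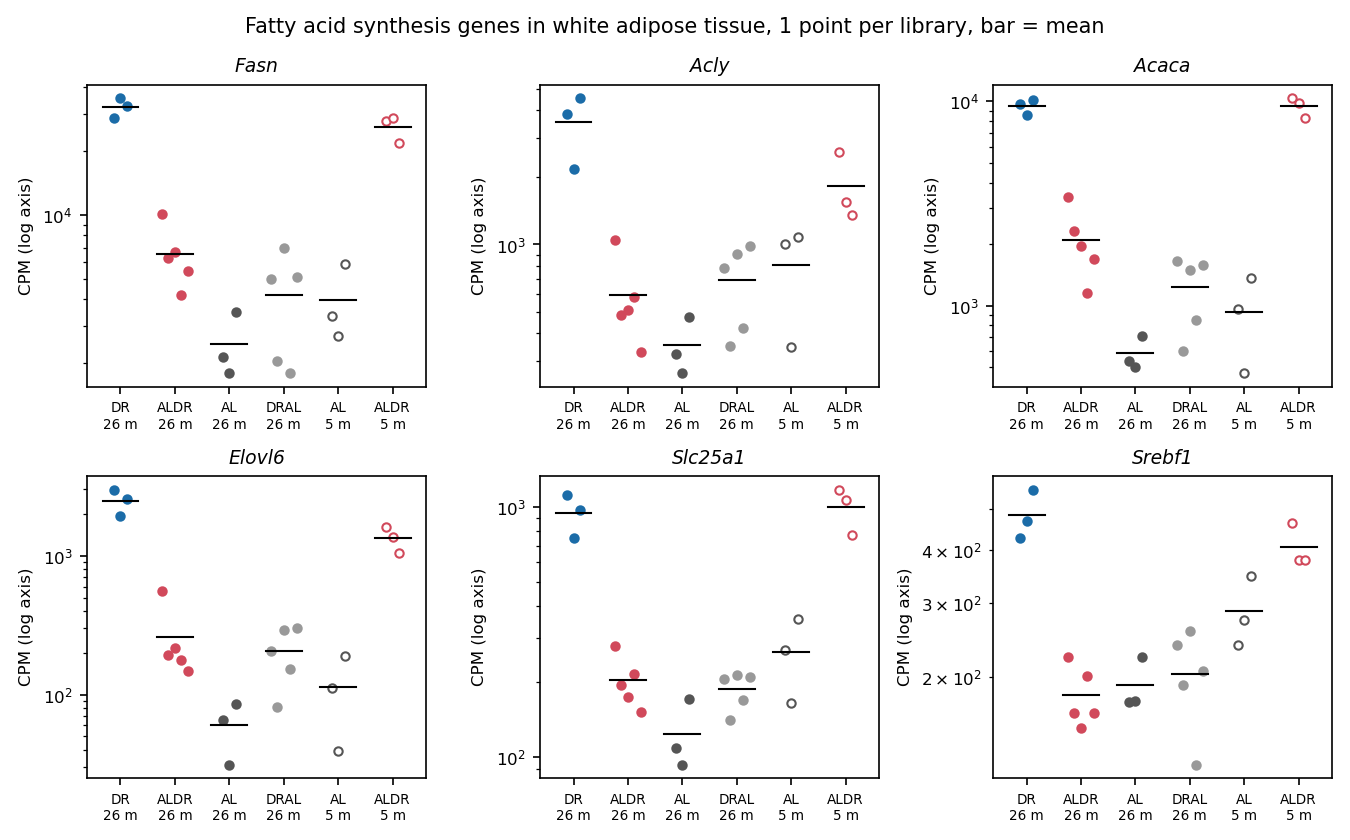
CPM on a log axis of 6 fatty acid synthesis genes in all 22 WAT libraries by group, with 1 point per library and the group mean as a bar; filled points are 26 months and open points 5 months. DR stands above ALDR in all 6 genes, for example 28540 to 35570 against 4184 to 10150 CPM of Fasn.

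Of 11 enzymes of NADPH and the pentose phosphate pathway, 7 were lower and 1 was higher in ALDR (background 6.96% lower, 5.81% higher), and 4 were lower and 0 higher with the muscle score (background 2.44% and 1.28%). The 1 higher of 11 is near the background. The lower count was 4 without ALDR replicate 3 or 5 and 3 without DR replicate 1 or 3. Tkt, transketolase, had 2112, 1177, 1523, 831 and 1325 CPM in ALDR and 5694, 3617 and 5590 CPM in DR (-1.83 ± 0.30, edgeR adjusted p = 0.000753). Pgd (phosphogluconate dehydrogenase) was lower at -0.82 ± 0.17, G6pdx, the entry enzyme of the pathway, at -0.58 ± 0.18 (adjusted p = 0.0384), and Nnt, the mitochondrial transhydrogenase, at -0.70 ± 0.13, all log2 fold changes ± SE. Rpe was also lower (-0.39 ± 0.10). Idh2, the mitochondrial isocitrate dehydrogenase, was the member called higher, by 0.38 ± 0.12 (adjusted p = 0.048), where ALDR replicate 1 lay within the DR range, and it lost its call without ALDR replicate 2, 3, 4 or 5 or DR replicate 1 or 2.

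The list of glucose uptake and glycolysis had 14 of 21 genes lower and 1 higher (background 6.96% and 5.81%), with a median of -0.87, and 13 were lower with the muscle score. Gpi1, phosphoglucose isomerase, was the most certain of them. It stood at 265, 251, 226, 200.1 and 231 CPM in ALDR and at 482, 461 and 499 CPM in DR, close together within each group (-1.04 ± 0.10, adjusted p = 4.39e-06). Steps on either side were lower too, with Slc2a4, the insulin-responsive glucose transporter, at -0.68 ± 0.16, Pfkl at -1.01 ± 0.16, Aldoa at -1.25 ± 0.20 and Pkm at -1.02 ± 0.20. The transporter Slc2a1 (0.33, adjusted p = 0.116) and the hexokinases Hk1 (0.15, adjusted p = 0.584) and Hk2 (-0.36, adjusted p = 0.244) were not called. Aldoa and Pkm are abundant in muscle as well, and both kept their call with the muscle score (adjusted p = 0.00945 and 0.0108), but the part of muscle RNA in their differences was not tested. Pfkp, the platelet form of phosphofructokinase, was higher (0.54 ± 0.16, adjusted p = 0.0352), but not called with the muscle score (adjusted p = 0.316) or without ALDR replicate 3 or 4 or DR replicate 2 or 3.

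Pyruvate dehydrogenase turns pyruvate into acetyl-CoA, and its subunits Pdha1, Pdhb and Dlat were all lower. Pdha1 had 521, 431, 405, 319.8 and 464 CPM in ALDR and 988, 844 and 877 CPM in DR (-1.08 ± 0.15, adjusted p = 0.000244). Dlat differed by -1.005 ± 0.15 (adjusted p = 0.000528) and Pdhb by -1.21 ± 0.19 (adjusted p = 0.000684). Pdk1, a kinase that restrains the complex, was lower as well, at 146, 98.2, 107, 72.0 and 118 CPM in ALDR and 299, 234 and 255 CPM in DR (-1.28 ± 0.19, adjusted p = 0.000435). Pdk4, the kinase known to rise in fasting, was lower in the main fit (-1.23 ± 0.37, adjusted p = 0.0359) but not with the muscle score (adjusted p = 0.37).

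Genes that build triglyceride followed, with 10 of 18 lower and 2 higher (background 6.96% and 5.81%, median -0.87), and 8 lower and 0 higher with the muscle score. Slc27a1, a fatty acid transporter, stood at 792, 743, 716, 310.3 and 938 CPM in ALDR and 2020, 2146 and 1991 CPM in DR. All DR libraries were above all ALDR libraries (-1.55 ± 0.24, adjusted p = 0.000527), and ALDR replicate 4 was the lowest by far. Agpat2, whose loss causes lipodystrophy, had 346, 226, 247, 346 and 232 CPM in ALDR against 798, 668 and 839.7 CPM in DR (-1.46 ± 0.25, adjusted p = 0.000979). Gpam, the first acyltransferase of the pathway, differed by -1.04 ± 0.18, and the last enzymes Dgat1 and Dgat2 by -0.95 ± 0.14 and -1.10 ± 0.29. Gk (glycerol kinase, 0.54 ± 0.16) and Lpin2 (0.45 ± 0.14) were higher in the main fit, neither was called without ALDR replicate 3 or DR replicate 3, and neither kept its call with the muscle score (adjusted p = 0.277 and 0.245). Pck1, which makes glycerol phosphate between meals, overlapped and was not called (-0.32 ± 0.28, adjusted p = 0.469).

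Sterol synthesis differed in part: 8 of 22 genes were lower and 0 higher (6 lower with the muscle score, 5 without DR replicate 3), against a background of 6.96% lower. Called genes included Fdft1 (squalene synthase), Lss, Cyp51 and Dhcr7, with Insig1, a sterol sensor and SREBP target, at -1.51 ± 0.35 (adjusted p = 0.00954). Fdft1 had 83.3, 71.1, 63.1, 53.7 and 69.4 CPM in ALDR and 136, 131 and 128 CPM in DR (-0.95 ± 0.13, adjusted p = 0.000176). Cyp51 differed by -1.28 ± 0.20, Lss by -1.12 ± 0.17 and Dhcr7 by -0.95 ± 0.16. Hmgcs1, an early enzyme of the pathway, was not called (0.51 ± 0.17, adjusted p = 0.052). Of 22 phospholipid genes, 3 were lower (5 without DR replicate 1) against the same background, led by Chpt1, which makes phosphatidylcholine (-1.03 ± 0.14, adjusted p = 0.000283), with Lpcat3 (-0.64 ± 0.12) and Pcyt2 (-0.74 ± 0.17).

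Lipolysis and lipid droplet genes were less uniform. In this list 8 of 22 were lower (background 6.96%) and 2 higher (5.81%), and 1 of each was called with the muscle score. The lower count fell to 1 without DR replicate 2, and to 5, 4 and 4 without ALDR replicates 1, 3 and 4. Without DR replicate 3, 1 was higher. Pnpla2, which encodes the triglyceride lipase ATGL, had 327, 386, 332, 215 and 365 CPM in ALDR and 521, 921 and 469.7 CPM in DR (-0.97 ± 0.28, adjusted p = 0.0276). Lipe, hormone-sensitive lipase, differed by -0.49 ± 0.14 and the adrenergic receptor Adrb3 by -0.82 ± 0.22. Neither Pnpla2, Lipe nor Adrb3 passed with the muscle score (adjusted p = 0.186, 0.0857 and 0.23). Bscl2, the droplet protein seipin, did (edgeR adjusted p = 0.0375), and it differed by -0.70 ± 0.17 in the main fit (adjusted p = 0.0111). Ffar2, a receptor for short-chain fatty acids that restrains lipolysis, was higher in both fits: 43.2, 69.1, 64.1, 68.1 and 67.4 CPM in ALDR and 31.9, 30.8 and 19.02 CPM in DR (1.19 ± 0.23, adjusted p = 0.00248). Npr3, the natriuretic peptide clearance receptor, was higher in the main fit (1.11 ± 0.29, adjusted p = 0.0176).

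In the citric acid cycle 12 of 20 genes were lower and 0 higher (7 lower without DR replicate 2 or 3). With the muscle score 4 were lower, and the median log2 fold change was -0.50 in both fits. The background was 6.96% lower, and 2.44% with the muscle score. Pcx, pyruvate carboxylase, which refills oxaloacetate for citrate export, was the clearest. It stood at 1265, 995, 959, 751 and 1138 CPM in ALDR and 2924, 3061 and 2998 CPM in DR (-1.55 ± 0.20, adjusted p = 0.000115). Citrate synthase (Cs) had 310.2, 333, 302, 338 and 278 CPM in ALDR and 595, 556 and 547 CPM in DR (-0.86 ± 0.12, adjusted p = 0.000338). Fatty acid oxidation had 4 of 20 lower and 0 higher. The count was 1 without DR replicate 2, where 1069 genes were called in all, and 1 with the muscle score (background 2.44%), near the background in both. The 1 kept with the muscle score was Cpt2 (edgeR adjusted p = 0.021), which differed by -0.75 ± 0.16 in the main fit (adjusted p = 0.00612). Cpt1a, the gate of fatty acid entry into mitochondria, was not called (0.33 ± 0.16, adjusted p = 0.171). Of 22 mitochondrial biogenesis genes, 5 were lower, and 2 with the muscle score. The count was 2 without DR replicate 2, and 3 without DR replicate 3 or ALDR replicate 1, 3, 4 or 5. Lower in the main fit were, among others, Tfb2m (-0.64 ± 0.11), Timm23 (-0.51 ± 0.11) and Ppargc1a (-1.03 ± 0.33, adjusted p = 0.0467). Ppargc1a, the coactivator PGC-1 alpha, is also expressed in muscle. Its estimate was -0.48 with the muscle score (adjusted p = 0.535), and the part of muscle RNA in its difference was not tested. Branched-chain amino acid breakdown had 6 of 20 lower (3 with the muscle score and 3 without DR replicate 2), including Bckdha (-0.47 ± 0.11) and Acadsb (-0.52 ± 0.09).

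Adipocyte identity was split between directions, with 5 of 20 genes higher and 6 lower (background 5.81% and 6.96%). With the muscle score 1 was higher and 3 were lower, and without DR replicate 3, 2 were higher. Pparg, the master factor of adipocytes, had 205, 223, 213, 289 and 171 CPM in ALDR and 238, 221 and 183 CPM in DR and was not called (0.04 ± 0.17, adjusted p = 0.895). Its estimate was below 0 with the muscle score and in 3 further settings. Adipoq, adiponectin, overlapped likewise (0.13 ± 0.12, adjusted p = 0.493), and its estimate was below 0 in the libraries with little Ckm. Leptin (Lep), the hormone that reports fat mass, stood at 789.6, 1075, 1274, 2579 and 494 CPM in ALDR and at 297, 291 and 265 CPM in DR (2.13 ± 0.46, adjusted p = 0.00551). ALDR replicate 4 was the highest and replicate 5 the lowest of a wide ALDR range, and the call was not kept with the muscle score (adjusted p = 0.066). Mest, an imprinted gene tied to fat expansion, was higher by 2.26 ± 0.54 (adjusted p = 0.0106; 0.0515 with the muscle score), with 366 ± 210.5 CPM in ALDR and 76.4 ± 29.01 CPM in DR. Rarres2, the adipokine chemerin, was higher in both fits: 287, 320.4, 305, 426 and 356 CPM in ALDR and 130.4, 155 and 129 CPM in DR (1.29 ± 0.15, adjusted p = 5.89e-05). Rbp4 (-1.02 ± 0.19), Retsat (-0.84 ± 0.13) and Retn, resistin (-0.86 ± 0.20), were lower, also with the muscle score.

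Macrophage genes went the other way. Of 16 markers, 13 were higher in ALDR and 0 lower (background 5.81%), with a median log2 fold change of 1.44, and 6 were higher with the muscle score. Without DR replicate 3, 8 were higher. In ALDR 2 and 5 against DR 1 and 2, 2 were higher (median 1.07), where 67 genes were higher in all. In the 4 libraries with Ckm under 100 CPM, with 1 DR library, the median was 1.21. Their summed level was 2465 to 3896 CPM in ALDR and 1007 to 1506 CPM in DR, without overlap, and none was without counts in any of the 8 libraries. In bulk tissue, fewer cells of a type and less RNA per cell cannot be told apart. Cd68, a lysosomal marker of macrophages, had 51.95, 74.2, 98.7, 65.8 and 65.7 CPM in ALDR and 31.5, 28.3 and 14.02 CPM in DR (1.53 ± 0.35, adjusted p = 0.00873). Trem2, the lipid receptor of macrophages that take up dying fat cells, had 30.2, 38.4, 56.6, 29.4 and 50.3 CPM in ALDR and 4.06, 5.799 and 6.11 CPM in DR (2.94 ± 0.45, adjusted p = 0.000528). The highest DR library was under the lowest ALDR library for both genes. Atp6v0d2, a subunit of the lysosomal proton pump, had 15.1, 29.03, 38.03, 14.1 and 31.3 CPM in ALDR and 1.51, 1.48 and 0.309 CPM in DR (4.51 ± 0.81, adjusted p = 0.00162). Mmp12, macrophage elastase and the only matrix gene called of 26 (2 were called without ALDR replicate 1 or DR replicate 2), stood at 50.1, 65.95, 133, 88.2 and 75.3 CPM in ALDR and 1.39, 1.93 and 1.67 CPM in DR (5.62 ± 0.85, adjusted p = 0.000488). DR replicate 3, with the most muscle RNA, was the lowest of the 8 libraries for 12 of the 16 markers, Cd68 and Atp6v0d2 among them and Trem2 not, and the part of muscle RNA in these levels was not tested. Itgax (2.84 ± 0.62), Ctss (1.89 ± 0.40), Lyz2 (1.51 ± 0.30), Adgre1 (1.57 ± 0.33), C1qa (1.32 ± 0.30) and Mrc1 (0.90 ± 0.18) were higher too. Csf1r (0.50 ± 0.20, adjusted p = 0.101), Itgam (0.87 ± 0.32, adjusted p = 0.0764) and Cd163, of resident macrophages (-0.62 ± 0.23, adjusted p = 0.0838), were not called.

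**Figure D3:**
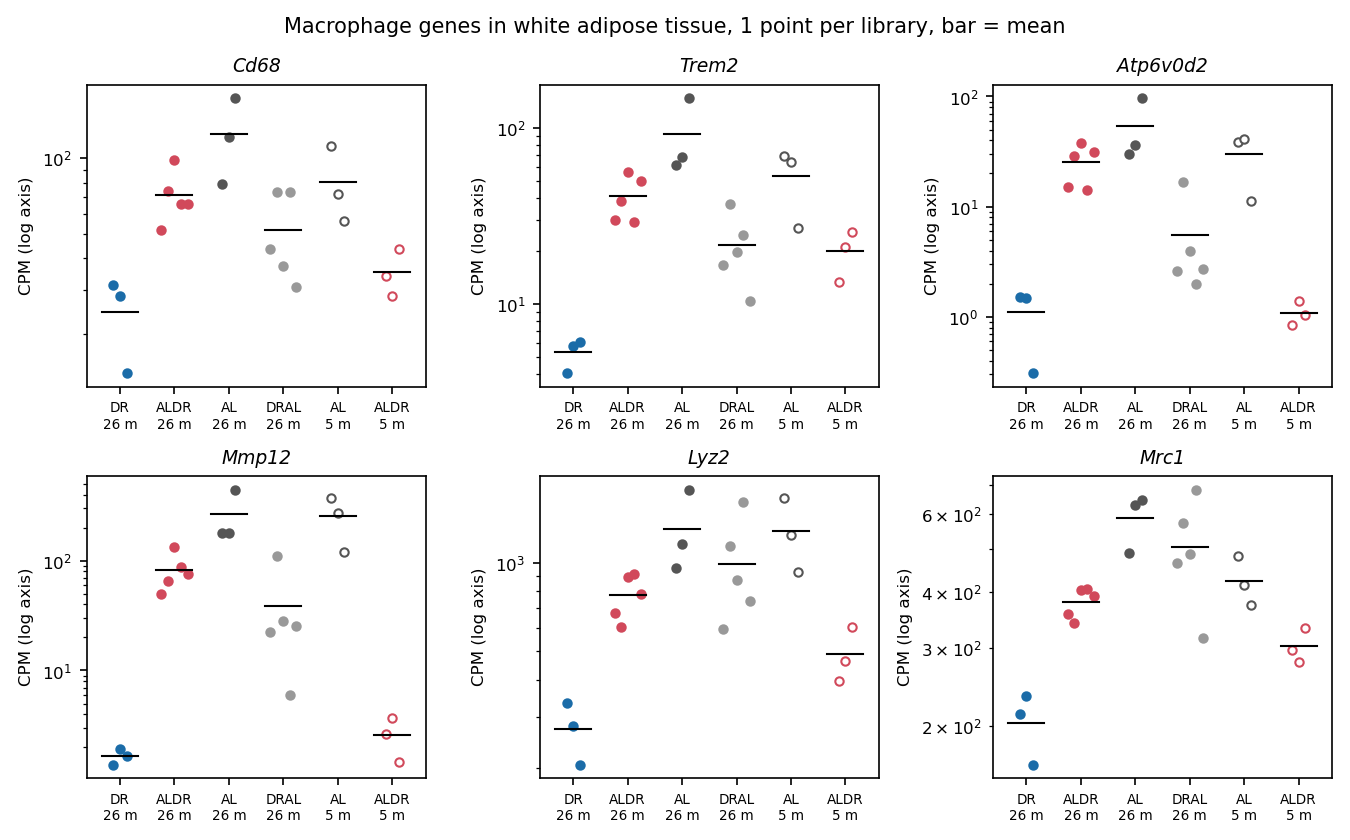
CPM on a log axis of 6 macrophage genes in all 22 WAT libraries by group, with 1 point per library and the group mean as a bar; filled points are 26 months and open points 5 months. In all 6 genes the 5 ALDR libraries lie above the 3 DR libraries at 26 months, for example 50.1 to 133 against 1.39 to 1.93 CPM of Mmp12.

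Inflammatory signals had 6 of 21 genes higher and 0 lower, 2 of them with the muscle score. The background was 5.81% in the main fit and 1.28% with the muscle score. The count was 3 without DR replicate 2 and 2 without DR replicate 3, where 1069 and 878 genes were called in all. Il1rn, the interleukin-1 receptor antagonist that macrophages secrete, had 1.06, 2.25, 4.81, 2.63 and 2.12 CPM in ALDR and 0.464, 0.305 and 0.185 CPM in DR (2.99 ± 0.55, adjusted p = 0.00202). Casp1, which activates interleukin-1 beta, differed by 0.86 ± 0.16 (adjusted p = 0.00249). Ccl2, a monocyte attractant, was higher in the main fit (2.01 ± 0.47, adjusted p = 0.00938), with 3.48, 2.41, 7.301, 10.7 and 4.02 CPM in ALDR and 1.85, 1.12 and 1.17 CPM in DR, and Ccl3 was at or under 0.116 CPM in DR, under the level of 3 counts. Tnf (1.20 ± 0.42, adjusted p = 0.0648) and Il1b (1.95 ± 0.83, adjusted p = 0.128) were not called. Cell cycle genes had 6 of 20 higher (background 5.81%) and 0 lower, a count that ranged from 1 without DR replicate 2 to 14 without DR replicate 1. It was 2 without DR replicate 3, 11 without ALDR replicate 2 and 3 without ALDR replicate 3, 4 or 5. The list was led by Cdk1, the mitotic kinase, at 5.59, 6.20, 5.94, 8.21 and 5.46 CPM in ALDR and 2.32, 1.98 and 1.42 CPM in DR (1.71 ± 0.27, adjusted p = 0.000654), which alone was called with the muscle score. Mki67 did not pass (1.11 ± 0.40, adjusted p = 0.0757). Endothelial markers had 5 of 12 higher (1 and 2 without DR replicates 3 and 2, and 3 without ALDR replicate 3, 4 or 5), of which Egfl7 was called in both fits (0.72 ± 0.15, adjusted p = 0.00475). T and NK cell markers had 2 of 15 higher (Gzma and Klrb1c; 0 with the muscle score, 7 without DR replicate 1 and 1 without DR replicate 2 or ALDR replicate 3), and of 12 B and plasma cell markers none passed the edgeR threshold in either direction.

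The 20 leading genes were those with the smallest p that were called with and without the muscle score, had no overlap and differed at least by 1 on the log2 scale. Highest certainty among those higher in ALDR went to Bcat1, the cytosolic branched-chain aminotransferase. The annotation places Bcat1 (ENSMUSG00000030268) on chromosome 6, 144993835 to 145076184, minus strand. It had 7.56, 12.8, 6.23, 9.85 and 8.34 CPM in ALDR and 1.101, 0.763 and 0.679 CPM in DR (3.39 ± 0.30, edgeR adjusted p = 2.74e-06), so that all 5 ALDR libraries were above 6 CPM and above every DR library. Apoe, the lipid carrier apolipoprotein E, had 2658, 3077, 3179, 2816 and 4176 CPM in ALDR and 1014, 1219 and 929 CPM in DR (1.59 ± 0.16, adjusted p = 5.62e-06). Timp4, a metalloproteinase inhibitor of adipocytes, had 259, 281, 352, 254 and 226 CPM in ALDR and 97.6, 114 and 60.8 CPM in DR (1.59 ± 0.18, adjusted p = 3.54e-05). The remaining higher genes were Rarres2, Mmp12, Mbnl3 (1.18 ± 0.15, a splicing factor), Clec1a (1.03 ± 0.13, a lectin of endothelium), Nap1l5 (1.84 ± 0.27, imprinted), Rab9b (2.95 ± 0.44) and Aldh3b1 (1.23 ± 0.18).

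Among those lower in ALDR, C2cd2l, a lipid transfer protein of membrane contacts, came first. The annotation places C2cd2l (ENSMUSG00000032120) on chromosome 9, 44309237 to 44320285, minus strand. Its libraries were tight, at 31.7, 32.04, 30.4, 28.1 and 31.8 CPM in ALDR and 76.03, 85.7 and 87.7 CPM in DR (-1.43 ± 0.11, adjusted p = 1.59e-06). Enpep, the aminopeptidase that cleaves angiotensin II, had 138, 112, 119.9, 72.7 and 80.4 CPM in ALDR and 794, 472 and 861 CPM in DR (-2.76 ± 0.23, adjusted p = 2.07e-06). Ofcc1 was under 0.2 CPM in every ALDR library, at or below the level of 3 counts, and at 4.17, 3.31 and 2.29 CPM in DR (-4.73 ± 0.41, adjusted p = 2.68e-06, a value that depends on the prior count). Slc5a6, the transporter of biotin and pantothenate, cofactors of carboxylases and of coenzyme A, had 41.3, 34.7, 27.3, 27.1 and 33.4 CPM in ALDR and 81.1, 78.4 and 89.5 CPM in DR (-1.34 ± 0.14, adjusted p = 1.7e-05). Gpi1 is described above, and Rassf3 (-1.26 ± 0.11), Oscp1 (-1.46 ± 0.14), Pth1r, the parathyroid hormone receptor (-1.45 ± 0.15), Snhg11, a long non-coding RNA (-1.97 ± 0.20), and Arsb, a lysosomal sulfatase (-2.08 ± 0.20), made up the rest.

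For the remaining lists the background was 6.96% lower and 5.81% higher. In every one with a call, apart from the liver list, a count moved by over 1.5 times when 1 library was left out. The clock list had 5 of 20 lower (3 without DR replicate 3) and 1 higher, with Usp2 (-1.50 ± 0.24) and Rora (-0.63 ± 0.12) among those lower and Nr1d1, REV-ERB alpha, higher (1.06 ± 0.34, adjusted p = 0.0493), a call kept only without ALDR replicate 5 among the fits that leave out 1 library. The core clock genes Arntl (0.02 ± 0.17, adjusted p = 0.944) and Dbp (-0.07 ± 0.30, adjusted p = 0.9) were not called, and both changed sign in some settings. Insulin and IGF signalling had 1 of 24 higher (Igfbp4, 0.42 ± 0.09) and 2 lower (Igfbp5, -0.78 ± 0.18, and Foxo1, -0.49 ± 0.14). Amino acid stress and serine synthesis genes had 3 higher (Slc3a2, Ddit3 and Phgdh) and 2 lower (Chac1 and Asns) of 20. None of the 5 was called with the muscle score, and none of the 3 without DR replicate 3. Senescence genes had Gadd45b and Mdm2 higher and Cdkn1c lower of 16, and folding genes had Sdf2l1 higher and Dnajb9 lower of 20, none of these with the muscle score. Brown and beige markers had 2 of 10 lower: Elovl3 (0.907, 0.274, 0.0566, 0.0657 and 0.303 CPM in ALDR, 6.14, 4.58 and 2.96 CPM in DR, -3.84 ± 0.81, adjusted p = 0.00511) and Ppargc1a. Elovl3 was under the level of 3 counts in ALDR replicates 3 and 4 (0.17 and 0.197 CPM), so the size of its fold change depends on the prior count. The adipocyte marker list had 1 of 10 higher and 3 lower (1 without DR replicate 2). Progenitor and fibroblast markers had 3 higher (Dpt, Dpep1 and Gsn) and 2 lower of 12 (Pi16 and Col14a1), 1 higher without DR replicate 3 and 0 lower without DR replicate 2. Muscle markers had 3 of 28 lower (Ldb3, Casq1 and Myl1), with a median of -2.70. Their count was 0 with the muscle score or without DR replicate 3, 17 without ALDR replicate 2, 7 without DR replicate 1, 1 without ALDR replicate 4 and 14 in the libraries with Ckm under 100 CPM. In smooth muscle and pericyte markers, Cspg4, known as NG2, was lower (-1.42 ± 0.24, adjusted p = 0.00103) and Kcnj8 higher of 11. Epithelial and mammary markers summed to 2012 to 2809 CPM in ALDR and 4212 to 5228 CPM in DR, of which Trf, the transferrin gene and the only one called of 8, made up 2079, 2782, 1989, 2069 and 2546 CPM in ALDR and 4168, 4388 and 5105 CPM in DR. Calls in the remaining marker lists were Hp higher and Cyp2e1 lower of 12 liver genes, Wt1 lower of 8 mesothelial genes and Hoxa10 higher of 7 reproductive tract genes. Pmp22 and Mbp were lower of 9 nerve genes, S100a8 higher and Elane lower of 10 mast cell and granulocyte genes, and the edgeR test called none of 7 red cell genes and not the 1 pancreatic gene tested. Hp and Cyp2e1, which adipose tissue also expresses, differed by 1.85 ± 0.37 (adjusted p = 0.00333) and -1.79 ± 0.34 (adjusted p = 0.00225).

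**Figure D4:**
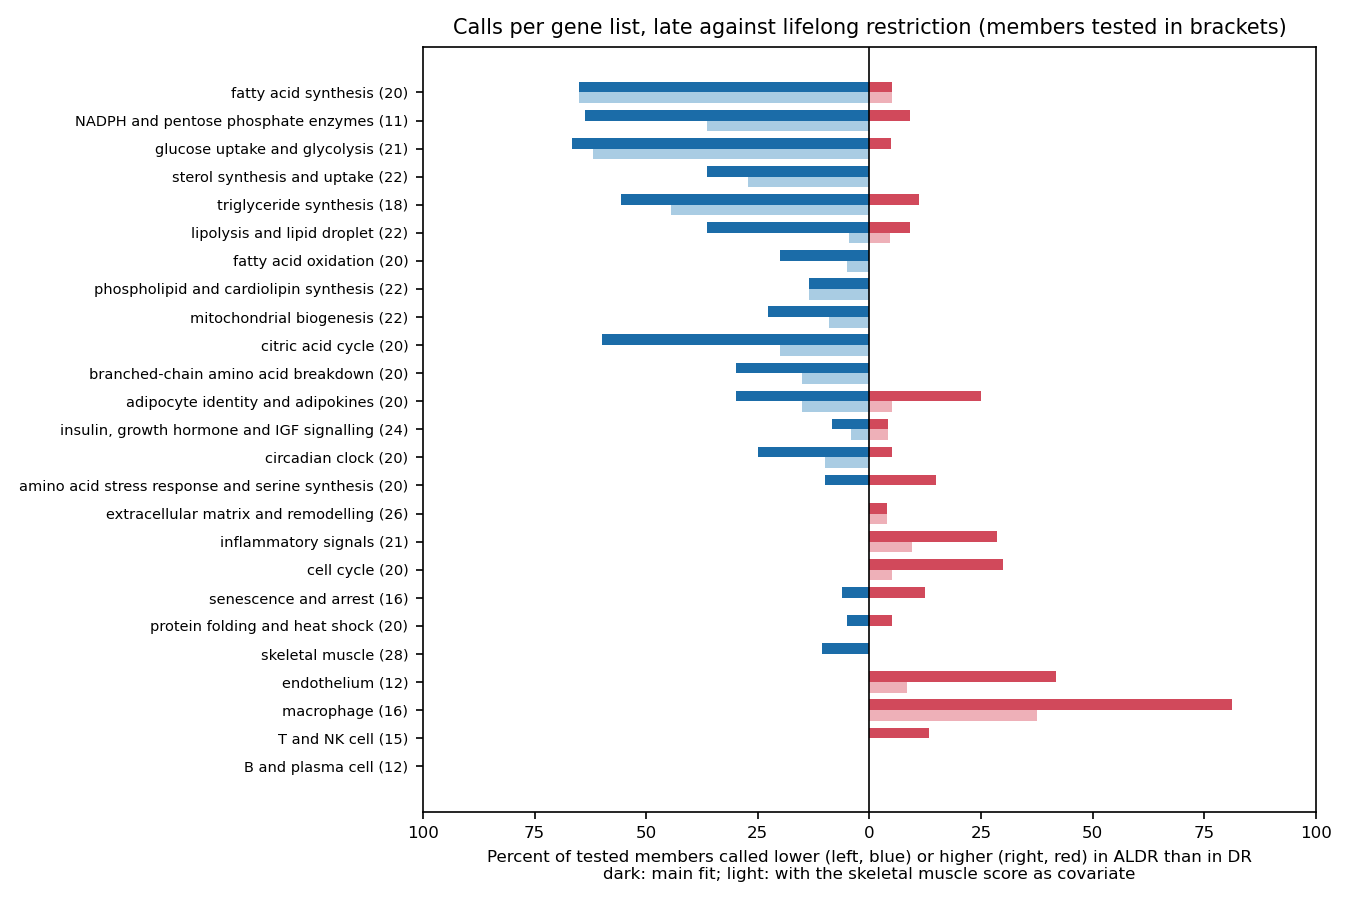
Percent of the tested members of each gene list that were called lower (left) or higher (right) in ALDR than in DR, with members tested in brackets; dark bars are the main fit and light bars the fit with the muscle score. Fatty acid synthesis (13 of 20), glycolysis (14 of 21) and triglyceride synthesis (10 of 18) extend to the left, and macrophage markers (13 of 16) to the right.

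The level of ALDR could be set beside that of fully fed mice of the same age, though these comparisons share libraries with the one above and are given as values only. For Fasn, AL mice had 2463 ± 883 CPM (mean ± SD, n = 3), which makes DR minus AL 3.71 and ALDR minus AL 1.41 on the log2 scale. For Elovl6 the values were 5.35 and 2.08, and for Slc25a1 they were 2.93 and 0.70. Srebf1 in ALDR (181 ± 30.2 CPM) stood beside 191 ± 28.0 CPM in AL, with DR minus AL at 1.34 and ALDR minus AL at -0.08. For Bcat1, Apoe, Timp4 and Enpep, ALDR minus AL was -0.17, 0.07, 0.08 and 0.05, while DR minus AL was -3.56, -1.52, -1.51 and 2.82. Trem2 stood at -4.12 for DR minus AL and -1.17 for ALDR minus AL. Over the fatty acid synthesis list the medians were 2.09 for DR minus AL and 0.62 for ALDR minus AL, and over macrophage markers -2.19 and -0.81.

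The same contrast in earlier diet could be made among mice that were fully fed at death. AL minus DRAL differs in whether the first 24 months were spent fully fed or restricted, and it uses none of the 8 libraries above. It called 344 of 15828 genes (2.17%) by the edgeR test, and 417 with the muscle score. Leaving out single libraries moved the 344 to 184, 61 and 115 (AL replicates 1, 2 and 3) and to 113, 209 and 131 (DRAL replicates 3, 4 and 5). Muscle markers had a median of 4.36 here, opposite in sign to ALDR minus DR, and liver markers 5.56, with none called. Summed muscle markers stood at 3750, 294 and 130.7 CPM in AL and at 94.3 to 145 CPM in DRAL. The part of muscle and liver RNA in this contrast and in the interaction below was not tested. Of the 2021 genes called under restriction, 143 were also called here, which is 7.08% of the former and 41.6% of the latter. The direction was the same in 128 of them, 81 higher and 47 lower after earlier full feeding.

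Cd68, Itgax, Mpeg1, Trem2, Gpnmb, Lgals3 and Atp6v0d2, 7 of 16 markers, were higher after earlier full feeding under both diets, as were 81 of all 15828 genes (0.512%). For Trem2 the log2 fold change was 2.94 ± 0.45 under restriction and 2.09 under full feeding (adjusted p = 0.0107), with 92.5 ± 47.8 CPM in AL and 21.7 ± 9.96 CPM in DRAL. Mmp12 differed by 2.79 under full feeding (adjusted p = 0.0204) and Atp6v0d2 by 3.28 (adjusted p = 0.0124). Cd163 was lower in AL than in DRAL (-1.08, edgeR adjusted p = 0.0288). Bcat1 (1.43, adjusted p = 0.0088), Nap1l5 (1.24, adjusted p = 0.0143) and Mbnl3 (0.63, adjusted p = 0.0301) were likewise higher. Enpep (-0.998, adjusted p = 0.0359), Oscp1 (-0.75, adjusted p = 0.0144), Pth1r (-1.01, adjusted p = 0.00503), Chpt1 (-0.84, adjusted p = 0.0112) and Retn (-1.05, adjusted p = 0.0182) were lower under both diets. In fatty acid synthesis the edgeR test called 0 of 20 genes under full feeding, where 0.891% of all genes were lower in AL, so 0 is near the background. The median was -0.62, also below 0. Fasn differed by -0.76 (adjusted p = 0.294) and Elovl6 by -1.76 (adjusted p = 0.0822).

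Whether the earlier-diet difference itself depended on the diet at death was tested as an interaction, which called 340 of 15828 genes (2.15%). It was 32 with the muscle score, 157, 106 and 172 without AL replicates 1, 2 and 3, 163, 201 and 215 without ALDR replicates 3, 4 and 5, 561, 73 and 125 without DR replicates 1, 2 and 3, and 159, 182 and 181 without DRAL replicates 2, 3 and 5. Of the 20 fatty acid synthesis genes, 3 were called, Slc25a1 (-1.63, adjusted p = 0.0226), Srebf1 (-1.33, adjusted p = 0.0179) and Fads1. Fasn (-1.54, adjusted p = 0.124) and Elovl6 (-1.51, adjusted p = 0.234) were not, so a different effect of earlier diet under the 2 feeding states was not shown for them. C2cd2l (-1.65, adjusted p = 2.01e-05), Gpi1 (-1.06, adjusted p = 0.000656), Apoe (1.23, adjusted p = 0.00568) and Timp4 (1.72, adjusted p = 0.00143) differed more under restriction than under full feeding. No macrophage marker was called in the edgeR interaction test (Trem2 0.85, adjusted p = 0.435).

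**Figure D5:**
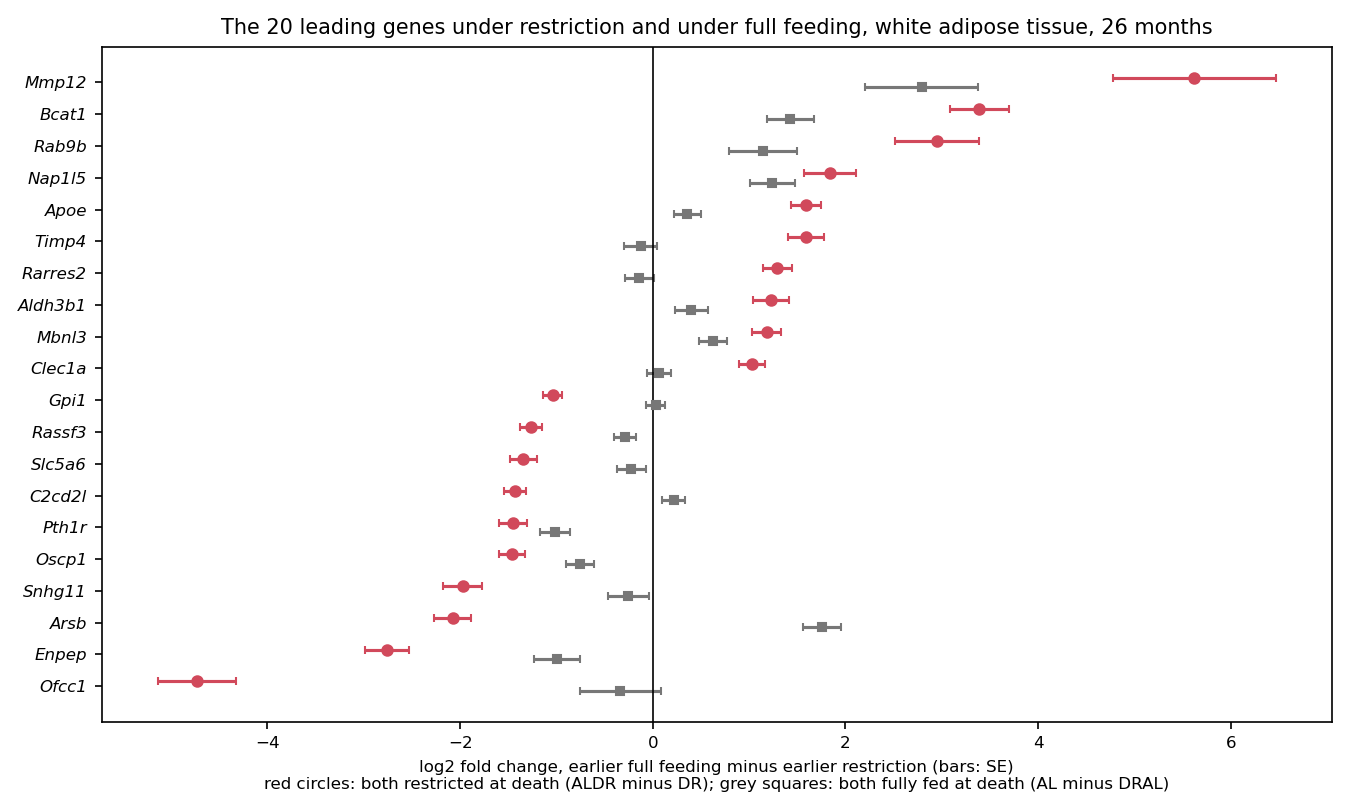
Log2 fold change ± SE of the 20 leading genes between mice fully fed and mice restricted before 24 months, when both groups were restricted at death (red circles, ALDR minus DR) and when both were fully fed (grey squares, AL minus DRAL). Bcat1 and Mmp12 are above 0 in both, while Arsb lies at -2.08 under restriction and at 1.76 under full feeding.

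A small set of genes was called in both comparisons with opposite signs. There were 15, of which 12 were lower in ALDR than in DR and higher in AL than in DRAL. In each of the 2 comparisons the group whose diet was switched at 24 months was thus the lower. Not all 12 were lower in both switched groups than in both unswitched groups. Adh1 had 238, 289.1, 273.1, 228.8 and 247.9 CPM in ALDR, and 246.9, 196 and 216.9 CPM in AL. These 12 were 1.09% of the 1102 genes lower in ALDR, while 203 of all 15828 genes (1.28%) were higher in AL than in DRAL, so the count is no larger than the background. The other 3, higher in ALDR and lower in AL, were 0.326% of the 919 genes higher in ALDR, against 0.891% of all genes lower in AL. Arsb stood at 26.1, 26.8, 28.9, 27.1 and 23.6 CPM in ALDR and 32.7, 32.2, 32.3, 30.3 and 26.97 CPM in DRAL, against 135, 109 and 92.1 CPM in DR and 76.5, 130.4 and 106 CPM in AL. Xkrx, named here after its values were seen, was below 1 CPM in all 10 switched libraries (0.907, 0.2195, 0.509, 0.394 and 0.152 CPM in ALDR), at 65.95, 44.97 and 39.3 CPM in DR and at 26.1, 46.3 and 37.5 CPM in AL. At 5 months Xkrx varied within groups, at 7.67, 0.846 and 21.9 CPM in AL and 9.18, 7.54 and 34.6 CPM in restricted mice. The log2 fold change of Xkrx was -6.85 ± 0.76 under restriction and 5.98 ± 0.72 under full feeding (edgeR adjusted p = 2.52e-05 and 0.000469). The other 10 of the 12 ran from -1.24 for Zadh2 to -0.26 for Ppp6r2 under restriction, and the 3 of the opposite pattern from 0.24 for Tmem234 to 0.36 for F11r. In brown fat, ALDR and DR did not differ detectably in Arsb (-0.08, adjusted p = 0.657) or Xkrx (-0.21, adjusted p = 0.799). The labels name no library batch, and the diet switch and any difference in handling between switched and unswitched libraries cannot be told apart.

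Restriction for 2 months at 5 months of age gave a comparison without shared libraries. In young mice 2346 genes were higher (14.8%) and 2273 lower (14.4%) after restriction, 3007 in all without restricted replicate 2. Of the 1102 genes lower in ALDR than in DR at 26 months, 658 (59.7%) were higher with young restriction and 11 were lower. Of the 919 higher in ALDR, 556 (60.5%) were lower with young restriction and 5 were higher. As a share of each list, 1230 genes called in both were 60.9% of the old and 26.6% of the young calls. Fasn rose by 2.72 on the log2 scale in young mice (adjusted p = 0.000288), Acaca by 3.35, Elovl6 by 3.57 and Slc25a1 by 1.93. Mmp12 changed by -6.61, Lep by -3.80 and Bcat1 by -2.51. In the fatty acid synthesis list 13 of 20 rose and 1 fell, and 11 of 16 macrophage markers fell. Arntl, not called between the old restricted groups, fell by 2.03 (adjusted p = 2.66e-06). Arsb did not differ detectably (0.07, adjusted p = 0.851).

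Brown adipose tissue (BAT) of the same diets was compared in 5 ALDR and 3 DR libraries with 6075585 to 19349912 counts. Of 13845 genes tested, 269 were higher (1.94%) and 453 lower (3.27%) in ALDR. Without ALDR replicate 4 there were 454 calls in all, and without DR replicates 1, 2 and 3 there were 95, 351 and 380. Among 13629 genes tested in both tissues, 1862 were called in WAT, 702 in BAT and 122 in both. The 122 were 6.55% of the WAT calls, beside 702 of 13629 over all genes. They were 17.4% of the BAT calls, beside 1862 of 13629 over all genes. Both shares are not far above those of all genes. The sign was the same in 80 and opposite in 42. The 13 fatty acid synthesis genes lower in WAT had BAT estimates from -0.20 (Acss2) to 0.27 (Pnpla3), and none was called (smallest edgeR adjusted p = 0.651), with Fasn at 0.0030 (adjusted p = 0.998), Elovl6 at -0.04 (adjusted p = 0.958) and Srebf1 at -0.01 (adjusted p = 0.984). Of the list, 1 of 20 was higher, Nnat (1.62, adjusted p = 0.0301), and 0 were lower. Gpnmb was the macrophage marker called of 16 (1.52, edgeR adjusted p = 0.0249). Enpep (-0.75, adjusted p = 0.00461), Snhg11 (-1.63, adjusted p = 0.0011), Slc5a6 (-0.62, adjusted p = 0.00195) and Fdft1 (-0.93, adjusted p = 0.0143) were lower in both depots, Mest (1.74, adjusted p = 0.0306) was higher in both, and Elovl3 was lower in WAT and higher in BAT (3.28, adjusted p = 0.0289). The difference between depots was not tested.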

How the data were processed

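RNA of 22 WAT libraries (ribosome-depleted, stranded, paired-end 100 bp) and 20 BAT libraries (polyadenylated, stranded, single-end 150 bp) was sequenced, per the labels' protocols and the series' design text. The authors deposited read counts per Ensembl gene, 1 column per library; the submitters' processing notes name Trim Galore 0.3.7, TopHat2 2.0.14, DESeq2 and build GRCm38, and the counting program and annotation are not given in the sources used here. Of 25913 IDs, 25012 had a symbol. Coordinates are those of GENCODE M21 on GRCm38.

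Counts were tested with the quasi-likelihood test of edgeR 4.0.16 (R 4.3.3) after filterByExpr and TMM scaling, with all 6 groups of a tissue in 1 fit and Benjamini-Hochberg adjustment over all genes tested. Standard errors are the log2 fold change over the root of F. The muscle score is the mean log2 CPM (prior count 2) of 28 muscle markers. The fit was tested on simulated data with known changes first.

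The comparison, 20 pathway lists and 17 marker lists were chosen with earlier results of these data known. Genes named are the 10 higher and 10 lower with the smallest p under the conditions in the text, up to 4 called members per direction of each list, and 17 set genes (Fasn, Acly, Acaca, Elovl6, Scd1, Srebf1, Mlxipl, Pparg, Adipoq, Lep, Ppargc1a, Cpt1a, Pck1, Cd68, Arntl, Dbp, Ckm); list members beyond these, the genes of opposite sign and the members called in the interaction were named after their values were seen. List counts are over members that passed the filter. Alternatives were RLE scaling, no filter, DESeq2 1.42.0, fits of the compared groups alone, a replicate block, the muscle covariate, leaving out each library and, added after seeing the data, 2 subsets of libraries chosen by Ckm. Liver was not used here. Some list members are counted but not reported here by name.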

Additional observations from a re-analysis of the deposited data

Results flagged for a closer look

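In 54 groups of ALDR values tested, 7 had 1 library far from the other four, where chance alone would give about 1 in 20 groups. These were Mbnl3 in replicate 2 (25.35 CPM), Pck1 in replicate 4 (1647 CPM), Arntl in replicate 5 (13.95 CPM), and the summed markers of mast cells and granulocytes in replicate 1 (114.2 CPM), of liver in replicate 2 (5011 CPM), and, on the mean log2 level, of epithelium in replicate 1 (2330 CPM summed) and of the reproductive tract in replicate 3 (28.3 CPM summed).

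The earlier-diet difference differed between restricted and fully fed mice at an edgeR adjusted p under 0.05 in the interaction test for 14 of the named leading and set genes. Over all genes this test called 340, but 32 with the muscle score and 41 with the replicate block. Which of the 14 kept their call in those fits is not reported here. The interaction, in log2 units, was positive for Bcat1 (1.96), Apoe (1.23), Timp4 (1.72), Rarres2 (1.43) and Clec1a (0.967). It was negative for C2cd2l (-1.65), Enpep (-1.76), Ofcc1 (-4.39), Rassf3 (-0.977), Arsb (-3.83), Gpi1 (-1.06), Snhg11 (-1.72), Slc5a6 (-1.12) and Srebf1 (-1.33).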

How the results depend on the processing

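Of the 138 named genes called in ALDR against DR, none changed sign in any alternative run. DESeq2 kept all 138 calls, RLE scaling 136, no filter 125, the replicate block 108, the 2 groups alone 98, and leaving out 1 library 96 (DR replicate 3) to 130. The muscle covariate kept 78, ALDR 2 and 5 against DR 1 and 2 kept 46 and the libraries with Ckm under 100 CPM kept 19, with fewer samples in both subsets. For ALDR against DR the count of 2021 became 1090 with the 2 groups alone, 1334 with the replicate block, 589 with the muscle covariate, 66 with Ckm under 100 CPM and 219 in ALDR 2 and 5 against DR 1 and 2, and 878 to 2351 without 1 library; DESeq2 gave 2691 and no filter 1695. For AL against DRAL, 344 became 932 (DESeq2), 101 (2 groups), 74 (replicate block) and 61 to 358 without 1 library. The interaction count of 340 became 200 (no filter), 905 (DESeq2), 41 (replicate block), 32 (muscle covariate) and 73 to 561 without 1 library. Young restriction gave 3007 to 4319 calls without 1 library, and BAT, at 722, gave 1136 (DESeq2), 63 (2 groups), 267 (replicate block) and 95 to 822. The cause of these shifts was not tested, other than that subsets hold fewer samples.

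Estimates of uncalled genes changed sign as follows. Pparg was -0.13 with the muscle covariate, -0.22 in ALDR 2 and 5 against DR 1 and 2, -0.075 without ALDR replicate 4 and -0.057 without DR replicate 3, of a range up to 0.13 without 1 library. Adipoq was -0.0044 with Ckm under 100 CPM. Arntl was -0.13 with the replicate block, -0.22 with Ckm under 100 CPM, -0.16 without ALDR replicate 5 and -0.015 without DR replicate 3, of a range up to 0.082. Dbp was 0.63 with Ckm under 100 CPM, 0.12 in ALDR 2 and 5 against DR 1 and 2, and 0.041, 0.085 and 0.38 without ALDR replicates 3 and 5 and DR replicate 3, of a range from -0.28. The Ckm difference ranged from -6.19 to -3.50 without 1 library. Libraries of the same number in ALDR and DR correlated at 0.354, 0.579 and -0.417 in their deviations from the group means, and ALDR replicate 3 correlated best with DR replicate 1, so the numbers were not taken as pairs and the block is given here only. Depth limits genes near 0.153 to 0.227 CPM.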
